A study of Arabidopsis thaliana with 102 samples.

Results

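The comparison set Tm-treated *bzip60-2* seedlings against DMSO-treated *bzip60-2* seedlings at 12 h of recovery from ER stress. Its members were the 3 Tm and the 3 DMSO libraries whose labels give that genotype, treatment and time-point, which are 6 of the 54 RNA-seq libraries in the series. *bzip60-2* is a T-DNA insertion line in the Col-0 background, so that the mutant stands for 1 insertion allele. Seedlings 5 days old were kept for 6 h on tunicamycin (Tm, 500 ng/mL) or on the solvent DMSO, which served as mock control, and were then moved to medium without the drug, where they recovered for 12 h. Each replicate was 12 whole seedlings, so that roots and shoots were measured together. The same comparison in Col-0 and in *bzip28-2*, a T-DNA line in the gene of the second UPR transcription factor, and in *bzip60-2* at 0 and 24 h of recovery is used below to show where the 12 h response of *bzip60-2* differed.

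Tunicamycin blocks the first step of protein N-glycosylation, and glycoproteins then misfold in the ER. Plant cells answer with the unfolded protein response (UPR). In this response the kinase and ribonuclease IRE1 splices the *bZIP60* mRNA into a form that encodes a nuclear transcription factor, while bZIP28 leaves the ER membrane, is cut in the Golgi and reaches the nucleus. Both factors bind promoter elements of genes for chaperones, folding enzymes, ER-associated degradation (ERAD) and vesicle transport, among them the ER stress-responsive element ERSE-I. In a *bzip60* mutant, bZIP28 and the related bZIP17 are still encoded.

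Expression is given as FPKM, the number of sequenced fragments scaled to the length of the transcript and to the mapped reads of the library. Over the 6 libraries the FPKM values summed to between 832571 and 915787, and the relative depth, read from the step size of weakly expressed genes, ran from 0.837 to 1.22 times the median of all 54 libraries. Across genes, Pearson's r of log2(FPKM + 1) was 0.967 to 0.980 within the DMSO replicates, 0.983 to 0.984 within the Tm replicates and 0.882 to 0.915 between them. Genes are not independent replicates, and r is a description only. All fold changes are log2 fold changes (Tm/DMSO) on the log2(FPKM + 1) scale, which understates the change of weakly expressed genes. They were tested with limma, and every adjusted p below is limma's, adjusted over the 21864 genes tested. The p-values measure the spread between 3 seedling pools per group.

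At 12 h of recovery, 3107 genes (14.2%) passed an adjusted p under 0.01 with an absolute log2 fold change over 1. Of these, 1767 genes (8.08%) were higher after Tm and 1340 (6.13%) were lower. In all of them the Tm and DMSO replicates did not overlap. A call at these thresholds makes that likely, so it is no separate evidence for the called genes. Over all genes tested, the median was 0.04. Among the higher genes the median size was 1.5, 502 genes were over 2 and 62 over 4. Among the lower genes the median size was 1.38, 201 genes were over 2 and 5 over 4. The count was lower whichever library was left out. It was 2055 without Tm replicate 3, 2070 without Tm replicate 2 and 2420 to 2748 without any other library. Leaving out a library leaves fewer replicates in its group and so lowers the power of the test. A call lost in this way, here and below, need not depend on that library alone. The lower genes moved most, to 608 without Tm replicate 2 and 748 without Tm replicate 3, against 937 to 1040 without any other library.

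The labelled tissue was checked against organ markers. All 13 root markers (Casparian strip, stele and root meristem genes, with the ER body genes *BGLU23* and *NAI2*) and all 12 green organ markers (Rubisco, antenna and leaf epidermis genes) were above 0 FPKM in the *bzip60-2* libraries at 12 h, so that neither organ was missing from the whole seedlings. The summed FPKM of the root markers was 3660.2, 5076 and 3452 in DMSO and 1936, 1686 and 2016 in Tm. That of the green markers was 31740, 37005 and 43118 in DMSO and 17680, 14821 and 8003 in Tm, with Tm replicate 3 the lowest. Tm and DMSO did not overlap in either sum. In whole seedlings, fewer cells of a type and less RNA per cell cannot be told apart.

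*bZIP60* itself (AT1G42990, TAIR10 chr1:16135723-16137463, minus strand) was examined first. Its FPKM was 29.9, 35.0 and 27.6 in the DMSO replicates and 141, 137 and 148 in the Tm replicates. The groups did not overlap, and the transcript rose by 2.17 (standard error 0.10, adjusted p = 0.000145). FPKM counts reads over the whole gene, and reads were not placed relative to the insertion, so this value does not check the genotype label. In Col-0 at 12 h the same gene had 24.0, 22.2 and 24.9 FPKM in DMSO and 194, 231 and 203 in Tm. The log2 fold change in *bzip60-2* minus that in Col-0 was -0.91 (standard error 0.13, adjusted p = 0.00589), short of the size threshold of 1.

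The other UPR sensors and transcription factors came next. Of 11 such genes tested, 6 rose and none fell, with a median log2 fold change of 1.14. *bZIP28* (AT3G10800), the gene of the other membrane-tethered UPR factor, had 10.1, 7.78 and 10.1 FPKM in DMSO and 34.9, 36.4 and 34.5 in Tm. The replicates were close to each other within each treatment, and the gene rose by 1.82 (standard error 0.12, adjusted p = 0.000314). *IRE1A*, which encodes an ER stress sensor, rose by 1.14 (standard error 0.09, adjusted p = 0.000613). *NAC062* and *NAC089*, which encode membrane-tethered NAC factors, rose by 2.49 and 2.15 (adjusted p = 0.0001 and 0.000187). *NAC103*, a NAC factor gene downstream of bZIP60, had 1.17, 0.814 and 1.37 FPKM in DMSO and 8.38, 7.80 and 10.5 in Tm, and rose by 2.22 (standard error 0.16, adjusted p = 0.000434). *bZIP17*, the gene of the close relative of bZIP28, had 14.4, 10.5 and 12.8 FPKM in DMSO and 19.4, 19.1 and 19.96 in Tm, and its log2 fold change of 0.61 was not called (adjusted p = 0.0116).

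The ER chaperones and lectins had the highest share of called genes of all lists. Of 16 genes, 15 rose, with a median log2 fold change of 2.81 (all genes, 0.04). *BiP3* (AT1G09080, chr1:2929217-2931850), the stress-inducible HSP70 of the ER, had 0.496, 0.712 and 0.436 FPKM in DMSO and 693, 711 and 746 in Tm. All 3 Tm replicates stood far above all 3 DMSO replicates, and its rise of 8.86 (standard error 0.09, adjusted p = 3.8e-06) was the largest of all genes. The constitutive copies *BIP1* and *BIP2* started from a high level. *BIP1* went from 129, 121 and 133 FPKM in DMSO to 897, 955 and 895 in Tm, a log2 fold change of 2.83 (adjusted p = 7.55e-05). *BIP2* went from 133, 99.8 and 129.8 to 1151, 1182 and 1146 FPKM, a log2 fold change of 3.26 (adjusted p = 0.000114). The coding sequences of *BIP1* and *BIP2* are nearly identical, so reads may have been split between them.

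The J proteins, which hand substrates to BiP, rose as well. *ERdj3A* had 5.22, 6.01 and 5.88 FPKM in DMSO and 187, 175 and 199 in Tm (log2 fold change 4.81, standard error 0.08, adjusted p = 3.05e-05). *ERdj3B* had 56.1, 53.2 and 54.6 FPKM in DMSO and 679.6, 630.5 and 698 in Tm (log2 fold change 3.59, standard error 0.08, adjusted p = 5.48e-05), and *P58IPK* had 33.1, 37.1 and 38.2 and 259.7, 243 and 272 (log2 fold change 2.81, standard error 0.09, adjusted p = 7.55e-05). *SHD*, which encodes the HSP90 of the ER, had 257, 179.9 and 193 FPKM in DMSO and 1572, 1507 and 1502 in Tm (log2 fold change 2.87, standard error 0.17, adjusted p = 0.000247). Of the lectin chaperones that bind N-glycans, *CNX1* rose by 2.81, *CRT1a* by 2.39 and *CRT1b* by 2.35 (adjusted p = 0.000171, 0.000362 and 0.00108). *SDF2*, a part of the ER quality control of glycoproteins, rose by 2.49 (adjusted p = 0.000299). *TIN1*, an ER stress gene found in plants and named for its induction by tunicamycin, had 1.803, 2.05 and 0.941 FPKM in DMSO and 113, 92.8 and 99.1 in Tm, a log2 fold change of 5.33 (adjusted p = 9.29e-05). Groups were apart in each of these genes.

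**Figure D1:**
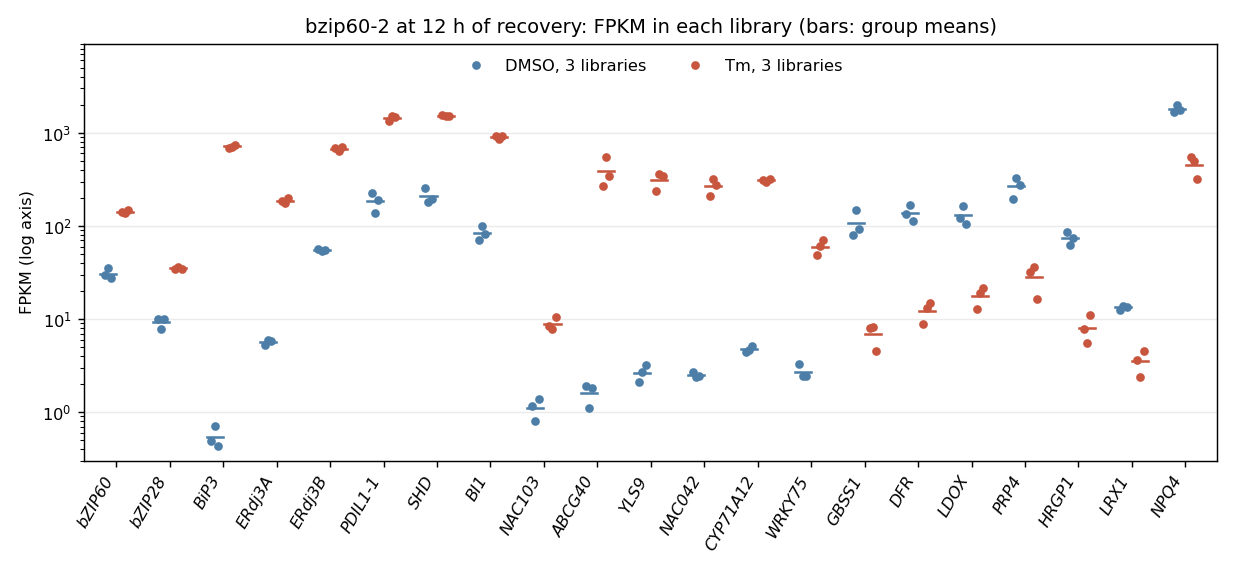
FPKM on a log axis of selected genes in each of the 3 DMSO and 3 Tm libraries of *bzip60-2* at 12 h of recovery, with 1 point per library. The Tm and DMSO points are apart for the genes that were called, from *BiP3*, which lies under 1 FPKM in DMSO and near 700 in Tm, to *DFR* and *GBSS1*, which lie lower in Tm.

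Folding enzymes, degradation and the way into the ER rose together with the chaperones. Of 15 protein disulfide isomerases and ER oxidases, 7 rose and none fell (median 0.87). *PDIL1-1* had 224, 136 and 191 FPKM in DMSO and 1339.8, 1509 and 1470.0 in Tm (log2 fold change 2.99, standard error 0.20, adjusted p = 0.000381). *PDIL1-2* had 113, 69.0 and 101 and 908, 968 and 901 (log2 fold change 3.31, standard error 0.19, adjusted p = 0.00026), and *ERO1*, whose product reoxidizes these isomerases, had 5.89, 5.71 and 5.21 and 58.9, 58.1 and 63.4 (log2 fold change 3.21, standard error 0.08, adjusted p = 6.29e-05). The lowest DMSO replicate of both isomerases was replicate 2, and no replicate overlapped between treatments. Of 13 ERAD genes, 7 rose and none fell (median 1.96). *Hrd1B*, a ubiquitin ligase of ERAD, had 30.8, 29.0 and 25.6 FPKM in DMSO and 333, 292 and 364 in Tm (log2 fold change 3.49, standard error 0.11, adjusted p = 7.55e-05). *DER2.1*, a derlin gene, rose by 2.78 (adjusted p = 7.55e-05), and *OS9*, the gene of a lectin that delivers misfolded glycoproteins, by 2.40 (adjusted p = 7.55e-05). *CDC48*, which encodes the ATPase that extracts ERAD substrates, had 221, 177 and 204 FPKM in DMSO and 331, 373 and 342 in Tm, and its log2 fold change of 0.80 (adjusted p = 0.00337) was under the size threshold.

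Of 17 translocon and signal peptidase genes, 9 rose (median 1.27). *AT3G60540*, which encodes a SEC61 beta subunit of the channel for nascent proteins, had 13.1, 9.99 and 14 FPKM in DMSO and 387, 421 and 479 in Tm (log2 fold change 5.02, standard error 0.15, adjusted p = 7.55e-05). Of 13 N-glycosylation genes, the step that Tm blocks, 3 rose (median 0.71), with *STT3A*, a catalytic subunit gene of the oligosaccharyltransferase, at 1.55 (adjusted p = 0.000261). Of 20 COPII and COPI coat genes, which serve traffic between ER and Golgi, 8 rose and none fell (median 0.84). *SARA1A*, the gene of a small GTPase that starts COPII assembly, had 1.75, 1.97 and 0.916 FPKM in DMSO and 65.9, 70.2 and 79.5 in Tm (log2 fold change 4.86, standard error 0.19, adjusted p = 0.000104). *YIP1a*, which encodes a YIP1 family protein of the early secretory pathway, had 12.4, 16.3 and 17.7 and 50.3, 48.4 and 50.3 (log2 fold change 1.64, standard error 0.14, adjusted p = 0.000632).

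Of 16 genes of cell death control, 3 rose (median 0.45). *BI1*, which encodes Bax inhibitor-1, a suppressor of cell death in the ER membrane, had 71.5, 99.6 and 81.4 FPKM in DMSO and 914, 850.2 and 926 in Tm (log2 fold change 3.41, standard error 0.14, adjusted p = 0.000111). *MC2*, a metacaspase gene, had 8.47, 3.97 and 7.42 and 23.1, 22.2 and 20.3 (log2 fold change 1.64, standard error 0.25, adjusted p = 0.00435), and its call was lost without DMSO replicate 3 or any Tm replicate (adjusted p up to 0.02). The count of the list was 1 without any 1 of the Tm replicates. Of 16 autophagy genes, 2 rose (median 0.64), 1 of them without DMSO replicate 1. *NBR1*, which encodes an autophagy receptor for ubiquitinated proteins, had 58.9, 65.3 and 66.4 FPKM in DMSO and 319.6, 329 and 333 in Tm (log2 fold change 2.35, standard error 0.08, adjusted p = 7.55e-05).

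**Figure D2:**
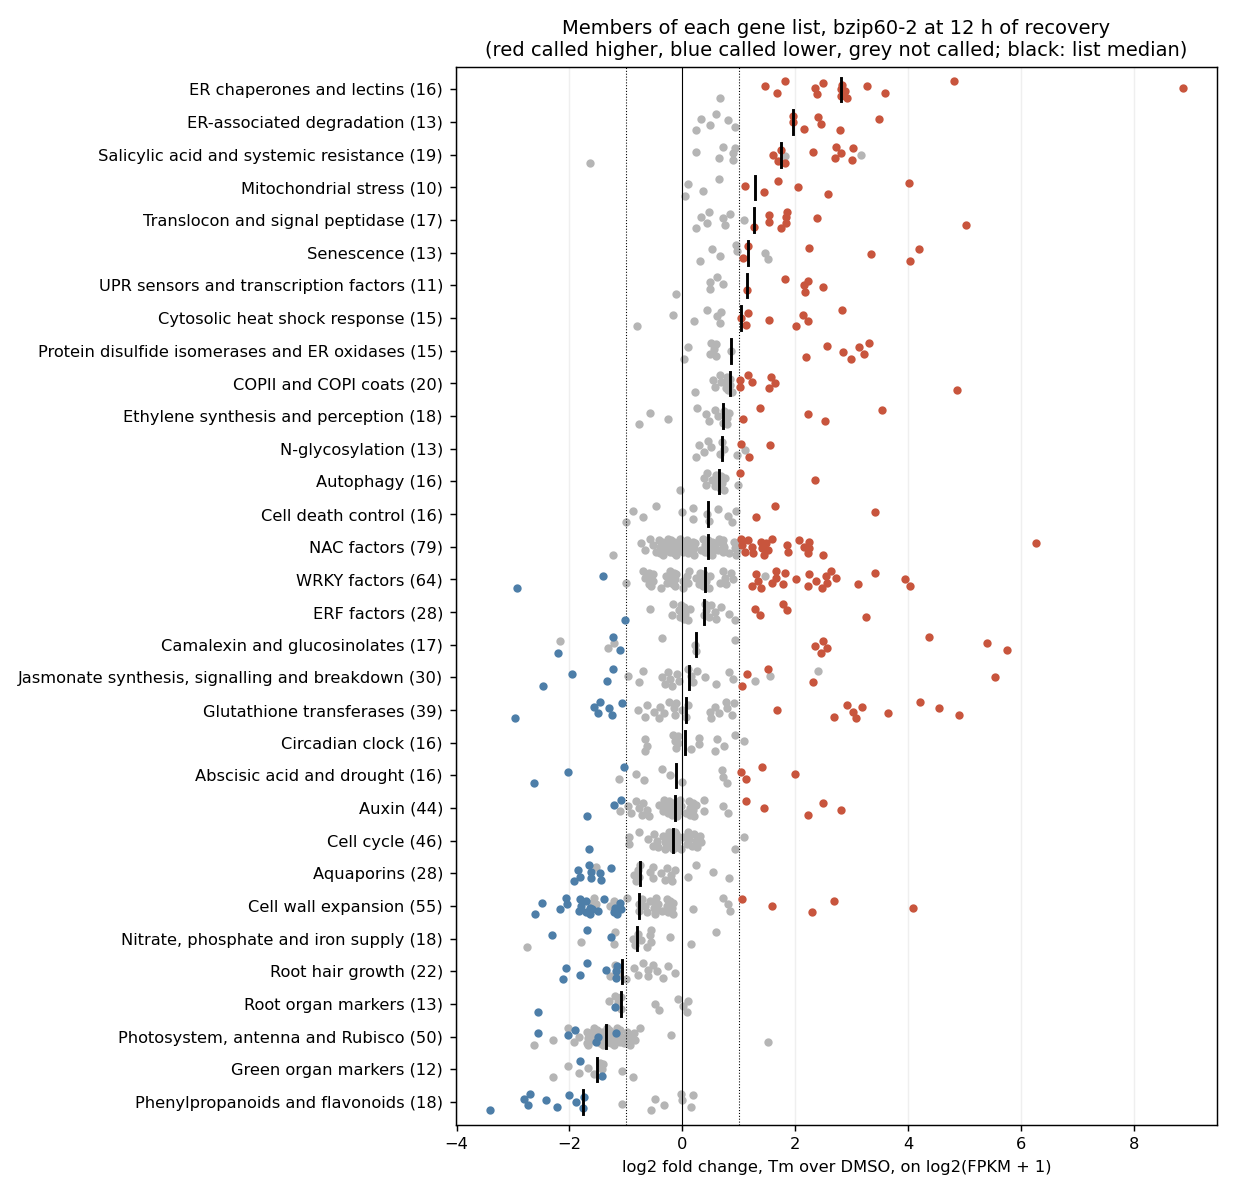
Log2 fold changes (Tm/DMSO) in *bzip60-2* at 12 h of recovery for the genes of each list, with 1 point per gene tested and the median marked. The ER chaperones (median 2.81) lie highest, and the phenylpropanoid (median -1.75), photosystem (median -1.36) and root hair (median -1.06) genes lie below 0.

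Promoter sequences of several of these genes hold the ERSE-I element, CCAAT-N10-CACG, which was searched on both strands in the 1000 bp before the annotated start. It was found at 54 of 1764 higher genes (3.06%, 95% Wilson interval 2.35 to 3.97), at 20 of 1335 lower genes (1.5%, 0.972 to 2.30) and at 337 of all 21627 promoters searched (1.56%). With 1 mismatch allowed, the shares were 16.2%, 13.0% and 13.4%. Of the 16 ER chaperones and lectins, 6 had a match (37.5%). A match is a description and no evidence of binding. The matches of the genes described above are shown with 5 bases on each side, to let the constant and the variable positions be seen in the genes with high fold changes. Capitals mark CCAAT and CACG, the sequences are the strand on which the motif reads 5′ to 3′, and they come from the RefSeq TAIR10.1 genome in TAIR10 coordinates.
*BiP3*, chr1:2931923-2931951, plus strand: cctctCCAATcacttcttgaCACGtaagc
*BiP3*, chr1:2932001-2932029, plus strand: agtacCCAATcacaagcagaCACGtgaca
*AT3G60540*, chr3:22375944-22375972, plus strand: gacgaCCAATaatataacgcCACGtggtt
*AT3G60540*, chr3:22375985-22376013, plus strand: gacatCCAATtttatattgaCACGtggaa
*Hrd1B*, chr1:24163680-24163708, plus strand: cgcaaCCAATgatataacgaCACGtgtat
*BI1*, chr5:19135768-19135796, minus strand: tctaaCCAATaagaatcatcCACGtggat
*PDIL1-2*, chr1:29126579-29126607, plus strand: tttatCCAATgaaaactctcCACGtgtat
*PDIL1-1*, chr1:7645418-7645446, minus strand: ccgcaCCAATgtacaagcgtCACGatatc
*SHD*, chr4:12556057-12556085, minus strand: ttgctCCAATacaaaactacCACGtggct
*P58IPK*, chr5:750037-750065, minus strand: tctatCCAATcgttatgaccCACGtggaa
*P58IPK*, chr5:749977-750005, minus strand: agtaaCCAATgataattaaaCACGtatga
*CRT1a*, chr1:21092754-21092782, plus strand: gttaaCCAATtagttaaataCACGccaga
*YIP1a*, chr2:15214487-15214515, minus strand: tttaaCCAATtacatcgtgcCACGttata
The 2 matches of *BiP3* lie 78 to 96 and 156 to 174 bases before its start. Both lie inside the deposited bZIP28 peaks of 0, 12 and 24 h and inside the bZIP60 peak of 0 h. The match of *SHD*, 4 to 22 bases before its start, lies inside the peaks of the same factors and time-points. Of the called genes in the ER, secretory, cell death and autophagy lists, *AT4G16660*, *EBS5* and *EBS1* also had a match, which is not shown.

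The series also holds ChIP-seq peak lists of GFP-tagged bZIP28, expressed from the 35S promoter in Col-0, and of GFP-tagged bZIP60, expressed from its own promoter in *bzip60-2*. Of 24 tested genes with a bZIP28 promoter peak at 12 h, 6 rose in *bzip60-2* (*BiP3*, *SHD*, *CNX1*, *CRT1b*, *SDF2* and *ECA4*) and 1 fell (*CSLB04*). Of 11 genes with a bZIP60 promoter peak at 12 h, 1 rose, which was *bZIP60* itself. That peak is 3411 bp wide and covers the gene, and the tagged line carries a *bZIP60* transgene. Other 12 h peaks lay at nearly the same positions for both factors. Among them were those at *AT2G07600*, *AT3G32990* and *AT3G41761*, which were 2280 to 5433 bp wide. None of these genes was called, and whether such peaks mark binding of either factor was not tested. Over the 3 time-points, 383 tested genes had a promoter peak of either factor, and 162 of them (42.3%) rose while 7 fell. The same genes gave 161 higher and 1 lower in Col-0 and 168 higher and 7 lower in *bzip28-2*. The background of higher genes is 8.08% in *bzip60-2*, 7.18% in Col-0 and 8.65% in *bzip28-2*.

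Outside the ER, the largest rises were in genes of transport, defence and oxidative metabolism. *ABCG40*, which encodes an importer of abscisic acid, had 1.91, 1.103 and 1.83 FPKM in DMSO and 267, 547 and 340.3 in Tm, with Tm replicate 2 the highest and the groups far apart (log2 fold change 7.15, standard error 0.29, adjusted p = 0.000111). *YLS9*, an *NHL* family gene linked to senescence and defence, had 2.11, 2.69 and 3.18 and 237, 359 and 342 (log2 fold change 6.41, standard error 0.20, adjusted p = 7.55e-05). *NAC042*, which encodes a NAC factor of stress tolerance and longevity, had 2.68, 2.38 and 2.43 and 209.7, 322 and 278 (log2 fold change 6.26, standard error 0.17, adjusted p = 7.08e-05). *PRX52*, a cell wall peroxidase gene, *ARD3*, a gene of methionine salvage, and *TPX2*, a peroxiredoxin gene, rose by 6.07, 5.76 and 5.34 (adjusted p = 0.000365, 0.00124 and 0.000142). Among genes chosen after their values were seen, *AT1G26390*, which encodes a berberine bridge enzyme-like protein, had 0.25, 0.358 and 0.207 FPKM in DMSO and 118, 181 and 143 in Tm (log2 fold change 6.84, standard error 0.17, adjusted p = 6.29e-05). *AT5G19880*, a peroxidase gene, and *AT5G44990*, a glutathione transferase family gene, were chosen in the same way and rose by 6.46 and 5.67 (adjusted p = 7.13e-05 and 8.32e-05).

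Camalexin, an indolic phytoalexin, and the glucosinolates are defence compounds of the mustard family. Of their 17 genes tested, 7 rose and 3 fell (median 0.24). *CYP71A12*, which encodes a P450 that acts on indole-3-acetaldoxime, had 4.46, 4.65 and 5.18 FPKM in DMSO and 309, 299.9 and 321 in Tm (log2 fold change 5.76, standard error 0.08, adjusted p = 8.16e-06). Its near copy *CYP71A13* rose by 5.39 and *PAD3*, whose product makes the last step to camalexin, by 4.37 (adjusted p = 0.000203 and 0.000296). The 3 lower genes were *MYB29*, a regulator of aliphatic glucosinolates (-2.20, adjusted p = 0.00187), *CYP83A1*, an enzyme gene of the same pathway (-1.23, 0.00695), and *MYB34*, a regulator of indolic glucosinolates (-1.11, 0.000979). The count of lower genes was 1 without Tm replicate 2 or Tm replicate 3, and *CYP83A1* was not called when any 1 library was left out (adjusted p up to 0.0219).

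Stress transcription factors rose in larger number than they fell. Of 64 WRKY genes 22 rose and 2 fell (median 0.41), and limma called no lower gene without Tm replicate 2 (8 at an unadjusted p under 0.05) and 1 without Tm replicate 3 or DMSO replicate 3. *WRKY75*, a senescence and defence regulator, had 3.27, 2.43 and 2.48 FPKM in DMSO and 49.3, 60.8 and 70.0 in Tm (log2 fold change 4.03, standard error 0.17, adjusted p = 0.000111). Of 79 NAC genes, 21 rose and none fell (median 0.45). *NAC019*, a factor of jasmonate and abscisic acid responses, rose by 2.24 in *bzip60-2* (adjusted p = 0.00303) beside a log2 fold change of 0.06 in Col-0, and the difference between them had an adjusted p of 0.00912. Over all genes, limma called 221 such differences, 34 to 280 with 1 library left out and 0 with the replicate number as block. Of 13 senescence genes, 6 rose and none fell (median 1.16). Of 18 ethylene genes, 5 rose and none fell (median 0.72), among them *ACS2* and *ACS6*, which encode ACC synthases, at 3.53 and 2.53 (adjusted p = 0.000163 and 0.000192). Of 28 ERF genes, 5 rose and 1 fell (median 0.39), and the lower gene was not called without DMSO replicate 2 or any 1 of the Tm replicates.

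Chaperones of other compartments were measured too. Of 15 genes of the cytosolic heat shock response, 8 rose and none fell (median 1.03), with 5 without Tm replicate 2 or Tm replicate 3. *HSP17.4*, a small heat shock protein gene, had 0.553, 0.765 and 0.790 FPKM in DMSO and 6.27, 5.42 and 7.99 in Tm (log2 fold change 2.14, standard error 0.15, adjusted p = 0.000419). Of 10 genes of mitochondrial stress, 6 rose and none fell (median 1.28). *AOX1D*, which encodes an alternative oxidase, had 0.124, 0.0996 and 0.283 FPKM in DMSO and 12.0, 19.9 and 23.9 in Tm (log2 fold change 4.02, standard error 0.26, adjusted p = 0.000314), and *AOX1A* rose by 1.69 (adjusted p = 0.000648). Of 39 glutathione transferase genes, 10 rose and 7 fell. The lower ones were fewer whichever library was left out, with 1 left without Tm replicate 1 or Tm replicate 2, 2 without DMSO replicate 1 and 3 without DMSO replicate 3 or Tm replicate 3.

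Of 19 genes of salicylic acid and systemic resistance, 10 rose and none fell (median 1.75), and 6 rose when Tm replicate 3 was left out. *EDS1*, a lipase-like hub of immune signalling, had 19.7, 13.7 and 17.0 FPKM in DMSO and 66.4, 51.3 and 58.3 in Tm (log2 fold change 1.75, standard error 0.16, adjusted p = 0.00084). *FMO1*, whose product makes N-hydroxypipecolic acid, had 4.35, 1.097 and 2.70 and 25.4, 24 and 32.4 (log2 fold change 3.01, standard error 0.36, adjusted p = 0.00183), and it was not called without Tm replicate 3 (adjusted p = 0.0103). *PBS3*, whose product makes the salicylic acid precursor from isochorismate, had 13.7, 3.47 and 11.9 and 69.0, 52.5 and 77.5 (log2 fold change 2.81, standard error 0.48, adjusted p = 0.00583), and its call was lost without DMSO replicate 3 or any Tm replicate (adjusted p up to 0.0261). *PR1*, the classic marker of salicylic acid, had 79.2, 15.3 and 96.8 FPKM in DMSO and 291, 749.8 and 423 in Tm. The DMSO replicates were already far apart, replicate 2 being low, and the log2 fold change of 3.17 (standard error 0.76) was not called (adjusted p = 0.0193).

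Of 30 jasmonate genes, 5 rose and 4 fell (median 0.12). The higher ones numbered 3 without DMSO replicate 1, DMSO replicate 2, Tm replicate 2 or Tm replicate 3, and the lower ones 2 without DMSO replicate 3 or Tm replicate 3. *OPR3*, a late enzyme gene of jasmonate synthesis, rose by 1.15 and *AOS*, an early one, fell, with a log2 fold change of -1.34 (adjusted p = 0.00507 and 0.00207). *AT2G38240*, which encodes a jasmonate-inactivating oxidase, had 2.13, 0.636 and 2.51 FPKM in DMSO and 85.6, 145 and 143 in Tm (log2 fold change 5.54, standard error 0.36, adjusted p = 0.000328). Of 16 abscisic acid and drought genes, 4 rose and 3 fell (median -0.11), with 2 higher without DMSO replicate 2 and 1 lower without Tm replicate 1 or Tm replicate 2. *NCED3*, the gene of a rate-limiting enzyme of abscisic acid synthesis, rose by 1.12 (adjusted p = 0.00482). *CYP707A2*, whose product breaks abscisic acid down, had 23.9, 11.9 and 17.0 FPKM in DMSO and 1.28, 1.02 and 0.637 in Tm (log2 fold change -3.20, standard error 0.27, adjusted p = 0.000674).

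Genes of the flavonoid pathway were lower. Of 18 phenylpropanoid and flavonoid genes, 10 fell and none rose, with a median log2 fold change of -1.75. *DFR*, which encodes the first enzyme committed to anthocyanins, had 135, 169 and 112 FPKM in DMSO and 8.81, 13.2 and 14.8 in Tm (log2 fold change -3.40, standard error 0.23, adjusted p = 0.000377). *LDOX*, the next enzyme gene, had 121, 162 and 106 and 12.9, 19.1 and 21.4 (log2 fold change -2.81, standard error 0.24, adjusted p = 0.000653). The replicates of both genes were apart by more than the spread within either treatment. *TT4*, which encodes chalcone synthase, *F3H* and *FLS1* had log2 fold changes of -2.01, -2.42 and -1.76 (adjusted p = 0.000842, 0.000233 and 0.00059). *PAL1*, the gene at the entry of the phenylpropanoid pathway, was not called, at -0.48 (adjusted p = 0.0398). *MYB111*, which encodes a flavonol regulator, had a log2 fold change of -1.88 (adjusted p = 0.00311).

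The named genes with the largest falls included metabolism and wall genes. *GBSS1*, which encodes granule-bound starch synthase, had 79.9, 148 and 92.1 FPKM in DMSO and 8.10, 8.23 and 4.51 in Tm (log2 fold change -3.75, standard error 0.31, adjusted p = 0.000616). *BGLU1*, a beta-glucosidase gene, and *TBL26*, a gene of the wall-modifying *TBL* family, had log2 fold changes of -3.67 and -3.22 (adjusted p = 0.000485 and 0.000389). *CYP706A6*, a P450 gene, and *MES18*, a methyl esterase family gene, were at -3.32 and -3.21 (adjusted p = 0.0046 and 0.00267). The call of *CYP706A6* was lost without any DMSO replicate or Tm replicate 2 (adjusted p up to 0.0171), and that of *MES18* without DMSO replicate 1, DMSO replicate 2 or Tm replicate 1 (up to 0.0122). After their values were seen, 4 lipid transfer protein-like genes and a defensin-like gene were added, which hold the 5 changes below a log2 fold change of -4. *AT5G46900* had 30.0, 32.7 and 26.2 FPKM in DMSO and 0.0549, 0 and 0.1002 in Tm (log2 fold change -4.86, standard error 0.12, adjusted p = 6.29e-05). *AT4G12510* had 26.4, 40.6 and 38.6 and 0.411, 0.545 and 0.598 (log2 fold change -4.55, standard error 0.19, adjusted p = 0.000111). *AT5G46890* and *AT4G22460* were at -4.85 and -4.20, and the defensin-like *AT4G11393* at -4.77 (adjusted p = 9.29e-05, 8.99e-05 and 0.000268). *AT5G46890* and *AT5G46900* are neighbouring genes of 1 family, and reads may be shared between them.

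Genes of wall growth were lower more often than higher. Of 55 cell wall expansion genes, 20 fell and 5 rose (median -0.76), and the lower ones numbered 8 without DMSO replicate 3, 9 without Tm replicate 2 or Tm replicate 3 and 12 without Tm replicate 1. *EXPA17*, an expansin gene, had 24.8, 27.1 and 25.5 FPKM in DMSO and 3.70, 2.79 and 3.70 in Tm (log2 fold change -2.61, standard error 0.12, adjusted p = 0.000147). *XTH10*, a xyloglucan endotransglucosylase gene, went the other way, from 2.89, 1.46 and 1.69 to 48.8, 50.7 and 47.0 FPKM (log2 fold change 4.08, standard error 0.19, adjusted p = 0.000142). *PRP4*, *AGP30* and *HRGP1*, which encode proline-rich, arabinogalactan and extensin-type wall proteins, had log2 fold changes of -3.24, -3.23 and -3.07 (adjusted p = 0.00136, 0.00118 and 0.000571).

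All 22 root hair genes had log2 fold changes below 0 (median -1.06), and 8 of them were called. The count was 2 without Tm replicate 1 or Tm replicate 2, 3 without DMSO replicate 1 and 4 without any other library. *LRX1*, which encodes a wall-bound extensin of growing hairs, had 12.6, 13.7 and 13.6 FPKM in DMSO and 3.68, 2.38 and 4.56 in Tm (log2 fold change -1.69, standard error 0.20, adjusted p = 0.0018). *PRP3*, a structural wall protein gene of hairs, had 64.0, 66.4 and 70.0 and 14.1, 12.1 and 20.8 (log2 fold change -2.06, standard error 0.19, adjusted p = 0.000912), and *RHS19*, a hair peroxidase gene, had 51.0, 78.4 and 50.8 and 11.7, 9.95 and 18.1 (log2 fold change -2.11, standard error 0.27, adjusted p = 0.00228). *RHS19* was not called without Tm replicate 1 or Tm replicate 2 (adjusted p up to 0.0114). *COW1*, whose product organizes hair tip growth, had 7.33, 9.24 and 5.43 FPKM in DMSO and 2.78, 1.85 and 3.88 in Tm, and its log2 fold change of -1.13 missed the threshold (adjusted p = 0.0176). The summed FPKM of the list was 251, 336 and 258 in DMSO and 96.0, 70.6 and 125 in Tm. The root markers were mostly lower in Tm as well (median -1.09), with 10 of 13 below 0 and 3 above. Limma called 2 of 13 lower (15.4%), beside 6.13% of all genes lower and 14.2% called in either direction. It called 1 without DMSO replicate 1 or any 1 Tm replicate. The part of the root markers in the root hair result was not tested.

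Of 50 genes of the photosystems, antennae and Rubisco, 49 had log2 fold changes below 0 (median -1.36), but 6 were called. Without Tm replicate 2 limma called no gene of the list, with 35 lower ones at an unadjusted p under 0.05, and 2 or 3 were called without any other library. The summed FPKM was 61079, 79508 and 86915 in DMSO and 38773, 32317 and 17585 in Tm, with Tm replicate 3 the lowest. *NPQ4*, which encodes the PsbS protein of light dissipation, had 1686, 1969 and 1759 FPKM in DMSO and 550.2, 493 and 318 in Tm (log2 fold change -2.02, standard error 0.25, adjusted p = 0.00194), and the adjusted p was 0.0105 without Tm replicate 2. *RBCS1A*, the major Rubisco small subunit gene, had 17472, 15047 and 20924 and 8743, 7318 and 4179, and its log2 fold change of -1.45 was not called (adjusted p = 0.187). The green organ markers, most of them members of this list, were lower in Tm too (2 of 12 called, median -1.51, and 1 called without DMSO replicate 1, Tm replicate 2 or Tm replicate 3), and their part was not tested.

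Of 28 aquaporin genes, 9 fell and none rose (median -0.76), and the count ran from 2 without Tm replicate 1, 3 without Tm replicate 3 and 4 without DMSO replicate 3 or Tm replicate 2 to 14 without DMSO replicate 1. Of 18 genes of nitrate, phosphate and iron supply, 3 fell (median -0.81), 1 of them without DMSO replicate 3, Tm replicate 2 or Tm replicate 3. Of 44 auxin genes, 5 rose and 3 fell (median -0.13), and 2 rose without DMSO replicate 3 or any 1 of the Tm replicates. Of 46 cell cycle genes, 1 fell and none rose (median -0.16). It was *LGO*, an inhibitor of cyclin-dependent kinases, with 51.0, 35.7 and 44.3 FPKM in DMSO and 14.7, 12.6 and 12.0 in Tm (log2 fold change -1.65, standard error 0.15, adjusted p = 0.000869), and without DMSO replicate 3 the list held 2 such genes. None of 16 circadian clock genes was called by limma (median 0.04, and -0.03 after the libraries were scaled), and 8 had an unadjusted p under 0.05.

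The response was then compared with that of Col-0 at 12 h, where 1570 genes (7.18%) were higher and 390 (1.78%) lower after Tm. The 1767 genes higher in *bzip60-2* had a median log2 fold change of 1.28 in Col-0, and the 1340 lower genes had -0.75 there, beside 1.5 and -1.38 in the group that chose them. The difference of the responses was tested as an interaction in limma, and 221 genes (1.01%) passed, 95 with a higher response in *bzip60-2* and 126 with a lower one. In the following, a difference is the log2 fold change in *bzip60-2* minus that in the other genotype, and both genotype comparisons share the 6 libraries of *bzip60-2*. The count was between 34 and 86 without any 1 DMSO replicate or Tm replicate 1 or 2 of Col-0 or without Tm replicate 2 or 3 of *bzip60-2*. It was 125 and 129 without DMSO replicates 1 and 3 of *bzip60-2*, and 148 to 280 without the remaining libraries. Of the ER chaperones, *BiP3* was the 1 gene called, with 0.948, 0.840 and 1.03 FPKM in DMSO and 339, 414 and 364 in Tm in Col-0. All 3 Tm replicates of *bzip60-2* were above those of Col-0, and the difference was 1.27 (standard error 0.13, adjusted p = 0.00203). This call was lost with all 54 libraries in the fit and with the replicate number as block. No gene of the ERAD, isomerase or translocon lists was called by limma, and 3, 0 and 0 of them had an unadjusted p under 0.05. For *ERdj3B*, *ERdj3A* and *Hrd1B* the differences were -0.01, -0.02 and -0.15 (standard errors 0.10, 0.12 and 0.16, adjusted p = 0.97, 0.958 and 0.686).

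In contrast, *AT1G18830*, the gene of a SEC31-type COPII coat subunit, answered less in *bzip60-2*. It had 0.0817, 0.257 and 0.127 FPKM in DMSO and 2.57, 2.06 and 2.70 in Tm (log2 fold change 1.57, standard error 0.10, adjusted p = 0.000318). In Col-0 the Tm replicates had 11.02, 10.2 and 12.1 FPKM and in *bzip28-2* 178, 149.7 and 149, while the DMSO replicates of all genotypes were under 0.5. The 3 genotypes were thus apart in Tm. Against Col-0 the difference was -1.72 (standard error 0.18, adjusted p = 0.00203), and that from *bzip28-2* was -5.54 (standard error 0.16, adjusted p = 1.26e-07), and both calls remained without any 1 library. The call against Col-0 was lost with 0.1 in place of the added 1 and with the replicate number as block. *SARA1A*, another COPII gene, went the other way. Its response was higher than in Col-0 by 1.53 (standard error 0.25, adjusted p = 0.00912). That call remained in 1 of the 12 fits with a library left out. It was also lost with 0.1 in place of the added 1 and with the replicate number as block.

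**Figure D3:**
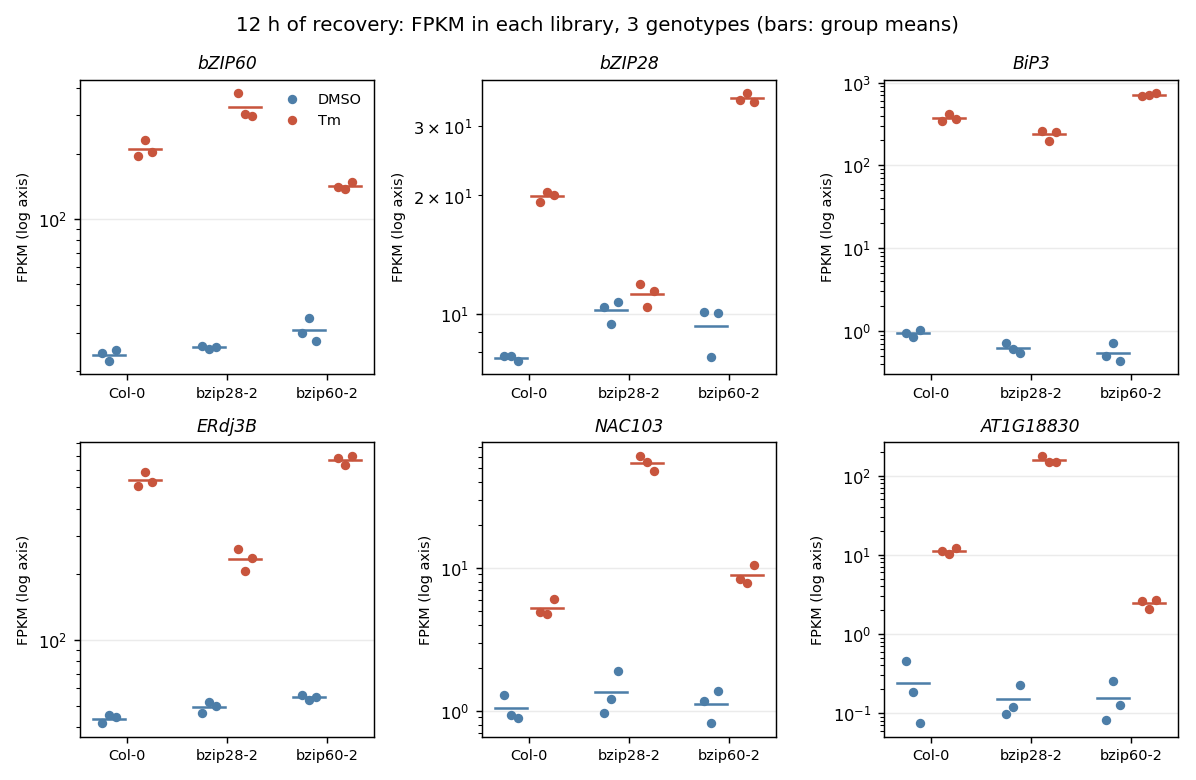
FPKM on a log axis of UPR genes at 12 h of recovery in the DMSO and Tm libraries of Col-0, *bzip28-2* and *bzip60-2*, with 1 point per library. *BiP3* lies highest in the Tm libraries of *bzip60-2*, whereas *AT1G18830* lies near 2 FPKM there, near 11 in Col-0 and at 149 or more in *bzip28-2*.

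By the rule for named genes, the genes with the largest higher response than in Col-0 were *WRKY66*, *GSTU3*, *CYP82C2*, *NHL25* and *GSTU12*. *WRKY66*, a WRKY factor gene, had 0.0934, 0 and 0 FPKM in DMSO and 13.9, 19.3 and 11.9 in Tm. In Col-0 its Tm replicates had 0.346, 0.484 and 0.973 FPKM and in *bzip28-2* 2.69, 3.38 and 4.99. The Tm groups did not overlap between genotypes, and the difference of responses was 3.36 (standard error 0.24, adjusted p = 0.000969). *GSTU3*, a glutathione transferase gene, had 0.524, 0.251 and 0.1995 FPKM in DMSO and 21.9, 39.9 and 30.5 in Tm, against 1.43, 2.42 and 2.11 in the Tm replicates of Col-0 (difference 3.07, standard error 0.29, adjusted p = 0.00203). *CYP82C2*, a P450 gene, *NHL25*, a gene induced in incompatible infections, and *GSTU12* differed by 2.87, 2.86 and 2.59 (adjusted p = 0.00303, 0.00303 and 0.00254). *CYP82C2* and *NHL25* were not called without DMSO replicate 1 or 3 of Col-0 (adjusted p up to 0.0105 and 0.0107). The calls of *GSTU3* and *GSTU12* were lost with 0.1 in place of the added 1. With the replicate number as block, no gene was called for a difference from Col-0. *DREB2C*, a heat and drought factor gene, *NAC042* and *YLS9* also had higher responses, by 1.58, 1.70 and 1.62 (adjusted p = 0.000969, 0.0044 and 0.00532). The calls of *NAC042* and *YLS9* were lost without 10 and 9 of the 12 libraries left out in turn (adjusted p up to 0.0168 and 0.0181).

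The genes with the largest lower response than in Col-0 were *ANK*, *ARCK1*, *CNGC11*, *HR4* and *LHT7*, of which several are linked to immunity. *ANK*, an ankyrin repeat gene induced by salicylic acid, had 18.4, 8.26 and 13.4 FPKM in DMSO and 24.0, 18.8 and 16.3 in Tm, groups that overlapped, and it was not called within *bzip60-2* (0.57, adjusted p = 0.173). In Col-0 it had 1.39, 1.14 and 1.88 FPKM in DMSO and 65.0, 49.8 and 39.5 in Tm. The difference was -3.82 (standard error 0.39, adjusted p = 0.00203), and the DMSO replicates of *bzip60-2* were all above those of Col-0. *ARCK1*, a receptor-like cytosolic kinase gene, *CNGC11*, a cyclic nucleotide-gated channel gene, *HR4*, a homologue of the resistance gene *RPW8*, and *LHT7*, an amino acid transporter gene, differed by -2.88, -2.68, -2.64 and -2.34 (adjusted p = 0.00503, 0.00527, 0.00348 and 0.00785). The calls of these 4 genes were lost when single libraries were left out, among them DMSO replicates 1 and 2 of Col-0, and the adjusted p then reached 0.0187, 0.0192, 0.0135 and 0.0245.

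None of the 19 salicylic acid genes was called by limma for a difference from Col-0 (10 had an unadjusted p under 0.05), although 14 of them rose in Col-0 (median 3.24) and 15 in *bzip28-2* (median 3.23), beside 10 in *bzip60-2* (median 1.75). The mock levels are given beside the Tm levels for those named. *PCC1*, a pathogen- and clock-controlled gene, had 131, 52.7 and 151 FPKM in DMSO and 39.2, 49.4 and 16.4 in Tm in *bzip60-2*, and 3.71, 1.95 and 27.9 and 193, 142 and 72.1 in Col-0. The difference was -5.75 (standard error 1.15, adjusted p = 0.0201), short of the threshold, and it was called without DMSO replicate 3 of Col-0 (adjusted p = 0.00924). *LURP1*, a gene of basal defence, had 109, 23.5 and 66.7 FPKM in DMSO and 126, 114 and 55.2 in Tm in *bzip60-2*, groups that overlapped, and 1.54, 1.27 and 13.5 and 191, 156 and 131 in Col-0 (difference -4.45, standard error 1.04, adjusted p = 0.0351). For *PR1* the difference was -1.70 (adjusted p = 0.617). Its DMSO replicates in Col-0 had 0.733, 0.185 and 32.4 FPKM, of which replicate 3 overlapped *bzip60-2*, and the log2 difference between the DMSO groups was 3.62 and not called (adjusted p = 0.212).

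**Figure D4:**
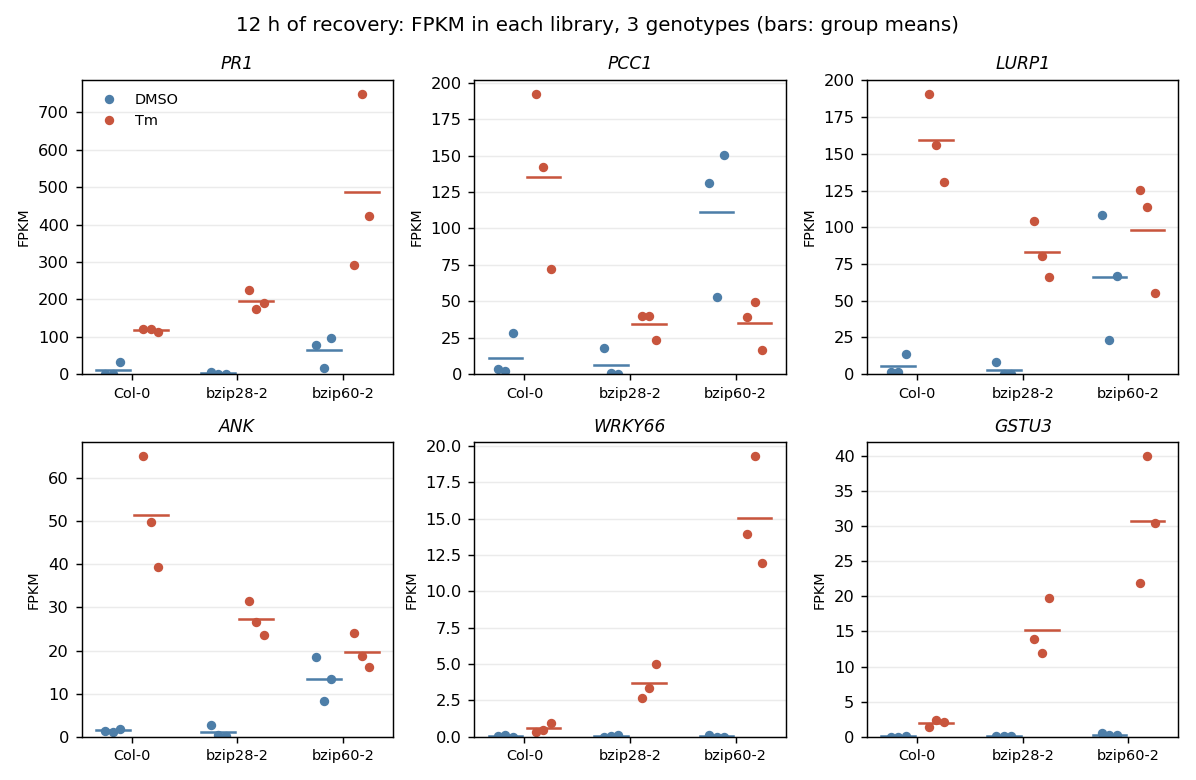
FPKM on linear axes of defence and stress genes at 12 h of recovery in the DMSO and Tm libraries of Col-0, *bzip28-2* and *bzip60-2*, with 1 point per library. The DMSO libraries of *bzip60-2* lie above those of Col-0 for *ANK* (8.26 FPKM or more against 1.88 or less), and *WRKY66* is highest in the Tm libraries of *bzip60-2*.

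The root hair list had no gene called by limma in Col-0 (median -0.19, with 5 of 22 at an unadjusted p under 0.05) and 13 in *bzip28-2* (median -1.32), beside 8 in *bzip60-2* (median -1.06). No root hair gene passed limma's test of the difference between *bzip60-2* and Col-0, and 18 of the 22 had an unadjusted p under 0.05. The differences of *RHS19* and *LRX1* were -1.74 and -1.15 (standard errors 0.41 and 0.28, adjusted p = 0.0361 and 0.0416). The cytosolic heat shock list had 3 higher genes in Col-0 (median 0.51), and 2 of its genes passed the test of the difference, *HSP17.4* at 1.63 and *HSP17.6A* at 1.59 (adjusted p = 0.00348 and 0.00298). These calls were lost without 3 and 2 of the 12 libraries (adjusted p up to 0.0133 and 0.0107). The phenylpropanoid list had 8 lower genes in Col-0 (median -0.90), the photosystem list 7 (median -0.71), and no gene of either passed limma's test of the difference (5 and 7 had an unadjusted p under 0.05). The mock levels of the photosystem list differed, however. Its summed FPKM in DMSO was 61079 to 86915 in *bzip60-2*, 85183 to 103277 in *bzip28-2* and 116668 to 137451 in Col-0. The median log2 difference of *bzip60-2* from Col-0 was -0.78 in DMSO and -1.45 in Tm. The cause was not tested.

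Compared directly within each treatment, *bzip60-2* and Col-0 differed in 5 genes (0.0229%) in DMSO and in 826 genes (3.78%) in Tm, of which 425 were higher in *bzip60-2*. The median log2 difference of all genes was 0.15 in DMSO and 0.11 in Tm, and it was 0.00 in both after the libraries were scaled, which left 2 and 445 genes. Leaving out 1 library gave 718 genes in Tm without Tm replicate 1 of *bzip60-2*, but between 0 and 7 without any other, with 0 called and 8243 at an unadjusted p under 0.05 without its Tm replicate 3. In DMSO it gave between 0 and 3, with 0 called and 4928 at an unadjusted p under 0.05 without DMSO replicate 3 of *bzip60-2*. In Tm, *PRX52* had 291, 486 and 354 FPKM in *bzip60-2* and 25.2, 34.2 and 37.9 in Col-0, a log2 difference of 3.49 (standard error 0.24, adjusted p = 0.00288), a call lost without 5 of the 6 libraries left out in turn (adjusted p up to 0.02). Of the 5 genes that differed in DMSO, *AT2G34590* and *AT3G44006* were chosen after their values were seen. *AT2G34590*, which encodes a plastid pyruvate dehydrogenase subunit, had 59.3, 66.7 and 71.0 FPKM in *bzip60-2* and 6.11, 4.74 and 6.65 in Col-0 (log2 difference 3.29, standard error 0.14, adjusted p = 0.00486), a call lost without any 1 library. In the DMSO replicates of *bzip28-2* it had 70.6, 69.1 and 66.0 FPKM, near those of *bzip60-2*. *AT3G44006* was listed at 0 in all 6 libraries of *bzip60-2* at 12 h and had 14.4, 14.01 and 14.9 FPKM in the DMSO replicates of Col-0. It was also listed at 0 in the 12 h libraries of *bzip28-2*, so neither value was particular to *bzip60-2*. *XTH24* and *HIR2*, a wall enzyme gene and a gene of the hypersensitive-induced reaction family, were higher by 1.73 and 1.15, and the small nucleolar RNA gene *SNOR77* was at -3.90 (adjusted p = 0.00984, 0.00984 and 0.00176). *XTH24* and *HIR2* were not called when any 1 library was left out, and *SNOR77* was not called without 4 of the 6 (adjusted p up to 0.0978 and 0.0364).

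In *bzip28-2* at 12 h, 1891 genes (8.65%) were higher and 1260 (5.76%) lower after Tm. The responses of the mutants differed in 11 genes (0.0503%), 4 with a higher and 7 with a lower response in *bzip60-2*. The count was 6 without DMSO replicate 2 of *bzip28-2*, 7 without Tm replicate 2 of *bzip60-2*, 21 without DMSO replicate 2 of *bzip60-2* and 22 without Tm replicate 3 of *bzip28-2*, and 9 to 15 without any other library. The genes higher in *bzip60-2* had medians of 1.5 there and 1.52 in *bzip28-2*, and the lower ones -1.38 and -1.19. *ERdj3B* had 46.2, 52.1 and 49.8 FPKM in DMSO and 262, 208 and 237 in Tm in *bzip28-2*, and the difference was 1.36 (standard error 0.12, adjusted p = 0.00226), a call lost without DMSO replicate 2 of *bzip28-2* (adjusted p = 0.0124). *BiP3* had a difference of 1.67 (standard error 0.15, adjusted p = 0.00232), and its call was lost without DMSO replicate 2 of *bzip28-2* or Tm replicate 2 or 3 of *bzip60-2* (adjusted p up to 0.0163). *NAC103* reached 61.1, 55.0 and 47.7 FPKM in the Tm replicates of *bzip28-2*, far above those of *bzip60-2*, and the difference was -2.35 (standard error 0.25, adjusted p = 0.00543). That call was lost without 8 of the 12 libraries left out in turn (adjusted p up to 0.0271).

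The genes of the factors themselves also differed between the mutants. *bZIP28* had 11.9, 10.4 and 11.4 FPKM in the Tm replicates of *bzip28-2*, close to its DMSO replicates, and the difference was 1.69 (standard error 0.14, adjusted p = 0.00139). *bZIP60* had 379, 304 and 299 FPKM in the Tm replicates of *bzip28-2*, and the difference was -1.44 (standard error 0.15, adjusted p = 0.00521), a call lost without 8 of the 12 libraries. *TSPO*, a membrane protein gene of the secretory pathway, had a difference of -1.28 (standard error 0.13, adjusted p = 0.00543), a call lost without 9 of them. *RLP15*, a receptor-like protein gene, was listed at 0 in the DMSO replicates of *bzip60-2* and had 2.101, 2.11 and 2.34 FPKM in Tm, against 0.465, 0.450 and 0.474 in *bzip28-2* (difference 1.13, standard error 0.06, adjusted p = 4.96e-05). *AT5G40981*, chosen after its values were seen, was listed at 0 in all 6 libraries of *bzip60-2* at 12 h and had 15.8, 13.5 and 13.3 FPKM in the Tm replicates of *bzip28-2*. It was also at 0 in the 12 h libraries of Col-0. In *bzip60-2* it had 16.0 FPKM in DMSO replicate 2 at 0 h and 12.3 in Tm replicate 2 at 24 h, with 0 in the other replicates of those groups. *AT1G42980*, the neighbour of *bZIP60* (chr1:16133286-16135587, plus strand), chosen in the same way, was listed at 0 in *bzip60-2* and had 1.27, 0.980 and 0.877 FPKM in the Tm replicates of Col-0 and 2.62, 1.98 and 2.53 in those of *bzip28-2*.

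Over recovery, *bzip60-2* had 112 higher (0.512%) and 74 lower genes (0.338%) at 0 h, and 1172 higher (5.36%) and 213 lower (0.974%) at 24 h. The response at 12 h differed from that at 0 h in 2171 genes (9.93%), of which 1487 had the higher value at 12 h (68.5%). After the libraries were scaled, 56.8% of the calls had the higher value at 12 h, and the median log2 difference of all genes went from 0.12 to 0.00. The response at 12 h differed from that at 24 h in 359 genes (1.64%), 138 with the higher value at 12 h (38.4%, and 49.1% after scaling). The latter count was between 129 and 187 without Tm replicate 2 or 3 at 12 h, any 1 Tm replicate at 24 h or DMSO replicate 3 at 24 h, 238 without DMSO replicate 1 at 12 h, and 265 to 345 without any other library. Both comparisons share the 12 h libraries, and a difference below is the 12 h value minus the other. The seedlings were grown in a cycle of light and dark, and 12 h lies at another time of day than 0 and 24 h. In these comparisons, time of recovery and time of day cannot be told apart.

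Many ER genes were already higher at 0 h. The ER chaperones had 12 of 16 genes higher at 0 h (median 2.06), 15 at 12 h (2.81) and 15 at 24 h (2.01). *BiP3* had 469, 572 and 399 FPKM in the Tm replicates at 0 h, 693, 711 and 746 at 12 h and 283, 217 and 238 at 24 h. The difference in log2 fold change was 1.64 (standard error 0.21, adjusted p = 0.000458) from 0 h and 1.29 (standard error 0.15, adjusted p = 0.00164) from 24 h, so that the response on this scale was largest at 12 h. The call from 24 h was lost with 0.1 in place of the added 1 and with all 54 libraries in the fit. Both calls were lost with the replicate number as block. *ERdj3B* likewise had a higher response at 12 h, by 1.24 and 1.11 (adjusted p = 1.49e-05 and 0.00608), and the latter call was lost without 11 of the 12 libraries left out in turn. *PDIL1-1*, *BI1* and *IRE1A* were higher at 12 h than at 0 h by 1.41, 1.31 and 1.19 (adjusted p = 0.00223, 0.000876 and 0.000347).

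Defence genes were called at 12 h but not at 0 h. By limma the salicylic acid list had no called gene at 0 h (median -0.13, with 5 genes at an unadjusted p under 0.05), 10 of 19 at 12 h (1.75) and 17 at 24 h (2.86), and the WRKY list 0 (12 at an unadjusted p under 0.05), 22 and 17 higher of 64. *ABCG40*, *PRX52*, *YLS9*, *NAC042* and *ARD3* had the largest gains from 0 h, with differences of 6.64, 6.09, 6.08, 5.93 and 5.80 (adjusted p = 6.9e-06, 1.94e-05, 1.06e-06, 1.33e-06 and 0.000343). *PCC1*, *LURP1* and *ANK* had lower responses at 12 h than at 24 h, with differences of -5.07, -4.89 and -3.77 (adjusted p = 0.00246, 0.00631 and 0.0011). The call of *LURP1* was lost without 10 of the 12 libraries left out in turn. The DMSO levels moved as well. *ANK* had 0.344, 0.233 and 0.506 FPKM in the DMSO replicates at 0 h, 18.4, 8.26 and 13.4 at 12 h and 0.0720, 0.557 and 0.203 at 24 h, so that the 12 h mock replicates were the highest.

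*DFR* and *GBSS1* had a lower response at 12 h than at either other time-point. By limma the phenylpropanoid list had no called gene at 0 h (median -0.42, with 9 genes at an unadjusted p under 0.05), 10 at 12 h (-1.75) and 4 at 24 h (-0.32). *DFR* had 34.8, 21.9 and 40.4 FPKM in the DMSO replicates at 0 h, 135, 169 and 112 at 12 h and 1.57, 1.14 and 0.686 at 24 h. The mock level was thus highest at 12 h, and the difference in response was -3.04 (standard error 0.37, adjusted p = 0.000339) from 0 h and -3.63 (standard error 0.41, adjusted p = 0.00148) from 24 h. With mock values this low at 24 h, *DFR* had little room to fall there on the log2(FPKM + 1) scale. Its difference from 24 h rests partly on that level. *GBSS1* had the same order, with 42.0, 35.7 and 33.3 FPKM in DMSO at 0 h and 7.20, 6.16 and 10.1 at 24 h, and differences of -3.41 and -3.44 (adjusted p = 0.000125 and 0.00174). The root hair list had no gene called by limma at 0 h (median -0.60) or 24 h (-0.32), with 13 and 6 of the 22 at an unadjusted p under 0.05. The photosystem list had 1 higher gene at 0 h (median 0.06) and none called by limma at 24 h (-0.89), with 23 of 50 at an unadjusted p under 0.05.

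**Figure D5:**
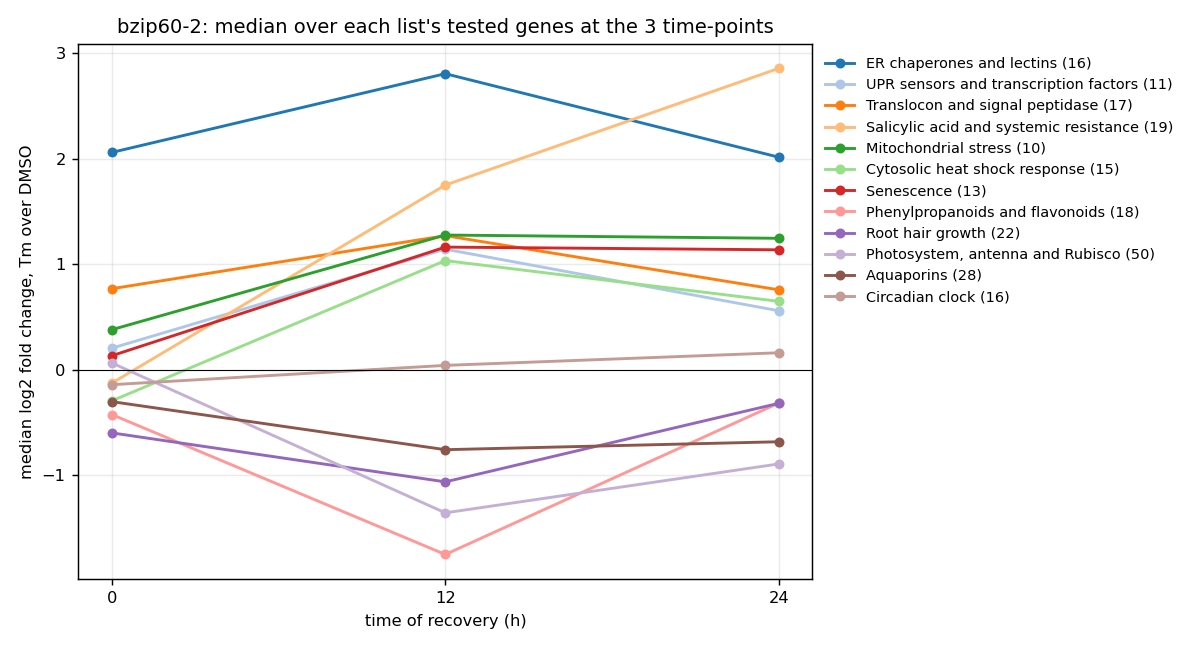
Median log2 fold changes (Tm/DMSO) of gene lists in *bzip60-2* at 0, 12 and 24 h of recovery, with 1 line per list. The ER chaperone median was 2.06, 2.81 and 2.01, the salicylic acid median -0.13, 1.75 and 2.86, and the phenylpropanoid median -0.42, -1.75 and -0.32.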

How the data were processed

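RNA was measured by RNA-seq in 54 libraries, 3 for each of 18 groups of genotype, treatment and time-point, and the groups were taken from the sample labels. Per the deposited table, values are FPKM for 34133 gene identifiers, of which 31510 matched a gene of the RefSeq TAIR10.1 annotation. The authors trimmed reads, aligned them to TAIR10 and computed FPKM. The submitters' processing notes name FastQC 0.11.5, cutadapt 1.8.1, TopHat2 2.0.14, Bowtie2 2.2.4, Bowtie 1.1.2, Cufflinks 1.3.0, SAMtools 1.8 and MACS2 2.1.2. In their own tests the authors used DESeq2 on read counts, which was not repeated because FPKM are not counts. Libraries were made with a stranded kit and the authors' read counts were taken by strand, while the strand setting behind FPKM is not given in the sources used here. Total counts were not analysed here. The relative depth of the 54 libraries, estimated from the step size of 5128 weakly expressed genes, ran from 0.834 to 1.27, and their FPKM summed to between 819066 and 918448. FPKM depend on the highest transcripts of a library, so a scaled alternative was run. Nothing in the labels gives a date or batch within a group.

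Genes above 1 FPKM in at least 1 of the 54 libraries were kept (21864 of 28053 with any value). Values were tested as log2(FPKM + 1) with limma 3.58.1 (R 4.3.3) with a mean-variance trend, on the libraries of each comparison, with Benjamini-Hochberg adjustment over all genes tested and genes were called where the adjusted p was below 0.01 and the log2 fold change exceeded 1 in size. Differences between responses were interaction terms. The members and the gene lists were chosen with earlier results of these data known, and a list is described by its counts and median, with no test. Genes named by rule were those the study names, the 10 called genes with a symbol and groups apart with the highest and the 10 with the lowest log2 fold change, up to 2 called members of each list in each direction with its most expressed member, and 5 called genes with a symbol in each direction for each difference and for *bzip60-2* against Col-0 in DMSO. Further genes were picked with their values known, which is said beside them, or belong to a list. Symbols shared by 2 loci were checked, and 4 members were dropped for it. The test was tried on simulated data first.

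The 6 deposited peak lists hold 1143 peaks of GFP-tagged bZIP28 and bZIP60, per factor and time-point, with MACS2 fold enrichment as the score column. The authors removed peaks that overlapped a peak of the DMSO samples, but kept overlapping ones that scored higher in Tm by more than a set factor. Their promoter class was used for genes, and 742 of 762 such peaks lay within 1000 bp of the annotated start, which checks the build. ERSE-I was searched in 1000 bp before the start on both strands, with 95% Wilson intervals that cover counting error only. Alternatives were a pseudocount of 0.1, scaled libraries, no filter, a filter on the mean, no trend, a fit on all 54 libraries, a threshold of 0.05 on the adjusted p, a block for the replicate number, and each library left out. For promoters they were 500 bp and 1 mismatch. Python 3.11.15 with pandas 2.3.3, numpy 2.4.6, statsmodels 0.14.6 and matplotlib 3.10.9 was used.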

Additional observations from a re-analysis of the deposited data

Results flagged for a closer look

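Each value here is the Tm response of *bzip60-2* at 12 h minus another response, tested as an interaction in limma and past the threshold. Of the 51 gene differences, 31 were called without any 1 library, 20 were lost without at least 1, and with the replicate number as block 13 were called and 38 were not.

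From Col-0, 221 genes differed. The response in *bzip60-2* was higher for *WRKY66* (3.36), *GSTU3* (3.07), *CYP82C2* (2.87), *NHL25* (2.86), *GSTU12* (2.59) and *BiP3* (1.27). It was lower for *ANK* (-3.82), *ARCK1* (-2.88), *CNGC11* (-2.68), *HR4* (-2.64), *LHT7* (-2.34) and *AT1G18830* (-1.72). From *bzip28-2*, 11 genes differed, among them *bZIP28* (1.69), *BiP3* (1.67), *ERdj3B* (1.36) and *RLP15* (1.13) with a higher response and *AT1G18830* (-5.54), *NAC103* (-2.35), *bZIP60* (-1.44) and *TSPO* (-1.28) with a lower one.

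From 0 h, 2171 genes differed. The response at 12 h was higher for *ABCG40* (6.64), *PRX52* (6.09), *YLS9* (6.08), *NAC042* (5.93), *ARD3* (5.80), *WRKY75* (3.91), *BiP3* (1.64), *PDIL1-1* (1.41), *BI1* (1.31), *ERdj3B* (1.24), *IRE1A* (1.19) and *bZIP28* (1.03). It was lower for *GBSS1* (-3.41), *MES18* (-3.08), *DFR* (-3.04), *NDA1*, a mitochondrial NADH dehydrogenase gene (-2.82), and *FBA1*, an aldolase gene (-2.81). From 24 h, 359 genes differed. The response at 12 h was higher for *TPX2* (3.62), *DYL1* (2.89), *SEN1*, a senescence-associated gene (2.63), *KCS12*, a fatty acid elongation gene (2.34), *IGMT4*, an indole glucosinolate methyltransferase gene (2.29), *NAC103* (1.66), *BiP3* (1.29), *ERdj3B* (1.11) and *AT1G18830* (1.01). It was lower for *PCC1* (-5.07), *LURP1* (-4.89), *ANK* (-3.77), *DFR* (-3.63) and *GBSS1* (-3.44).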

How the results depend on the processing

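No call of a named gene was reversed. Of the 141 named genes, 98 kept their call in every alternative and 103 in all but the replicate block, and 86 of the 118 called genes were called without any 1 library. Of the 3107 calls, 3028 were shared with a pseudocount of 0.1 (3547 called), 2793 with scaled libraries (2982), 2608 with no filter (2608), 3070 with a filter on the mean (3406), 3078 without the trend (3085) and 3098 with all 54 libraries in the fit (3540). Scaling moved the median of the clock list from 0.04 to -0.03 and that of the glutathione transferases from 0.06 to -0.02. The cause was not tested for any value below.

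The difference from Col-0 (221 genes) gave 139 with no filter, 332 with the filter on the mean, 506 with all libraries and 598 at an adjusted p under 0.05. That from *bzip28-2* (11) gave 7 with a pseudocount of 0.1 and 22, 57 and 55 with the last 3 settings, and that from 24 h (359) gave 886 with all libraries and 838 at an adjusted p under 0.05. Between genotypes in DMSO (5), a pseudocount of 0.1 gave 13, scaling 2, no filter 1, the filter on the mean 127, no trend 3, all libraries 350 and an adjusted p under 0.05 219. Between genotypes in Tm (826), scaling gave 445, no filter 362, all libraries 1252 and an adjusted p under 0.05 1272. With 1 mismatch allowed, 16.2% of the promoters of higher genes held ERSE-I, beside 13.0% of those of lower genes and 13.4% of all promoters searched. Leaving out 1 library gave 2055 to 2748 genes in all, 608 to 1040 lower ones, 34 to 280 for the difference from Col-0, 6 to 22 for that from *bzip28-2*, 129 to 345 for that from 24 h, 0 to 3 in DMSO and 0 to 718 in Tm.

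The labels do not say whether replicate numbers mark pairs. The paper describes recovery plates with a Tm side and a DMSO side as a replicate. Same-numbered Tm and DMSO libraries deviated with r = -0.09, -0.18 and -0.05, and none correlated best with its own number. With 3 libraries per group, these values cannot decide whether the libraries were paired. With the replicate number as block, 1584 genes were called (1065 higher and 519 lower, 1575 of them shared), 159 of them list genes, 1048 for the difference from 0 h, 3 for that from *bzip28-2* and 3 for that from 24 h. It called 0 for the difference from Col-0, 0 in DMSO and 0 in Tm, with 4386, 4724 and 10093 genes at an unadjusted p under 0.05 in limma.

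With 3 pools per group, the number of replicates limits the precision. A gene listed at 0 FPKM was not detected at a depth that the files do not state.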
